A study of Homo sapiens with 12 samples.

Results

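The transcriptional response of Calu-6 cells to *LAPTM4B* knockdown in medium with 10% FBS was followed across every array feature that carries a single gene symbol. Calu-6 is a human lung cancer cell line. Cells received scrambled siRNA (siControl) or a Dharmacon SMARTpool of siRNAs against *LAPTM4B* (siLAPTM4B), both with Lipofectamine RNAiMAX. A day later the medium was changed to DMEM/F12 with 10% FBS, and total RNA was isolated 48 h after that change, which was 72 h after transfection. Each group had 3 biological replicates, so 6 of the 12 arrays of the series entered the comparison. The remaining 6 arrays came from cells given the same siRNAs and kept in medium with 0% FBS, and they are used here where the knockdown effects in the media were compared. The comparison asks which genes depend on *LAPTM4B* when cells are not starved. It rests on a single cell line, a single siRNA pool and a single control siRNA, so that effects of losing *LAPTM4B* and other effects of the pool cannot be told apart.

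*LAPTM4B* encodes a membrane protein of late endosomes and lysosomes. It belongs to a small family with *LAPTM4A* and *LAPTM5*, is frequently amplified or overexpressed in carcinomas, and is known for roles in receptor sorting, sphingolipid handling, nutrient sensing and autophagy. Serum supplies growth factors, lipids and proteases, so that cells in 10% FBS proliferate while starved cells slow down.

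Values are log2 signals made by the authors with RMA, and a log2 fold change is the siLAPTM4B mean minus the siControl mean. Of the 19460 features with 1 symbol, which stand for 18417 genes, 793 were called at a Benjamini-Hochberg adjusted p under 0.05 from limma, 387 higher and 406 lower after knockdown. This is 4.08% of the features tested, with 1.99% called higher and 2.09% called lower. The median log2 fold change over all features was 0.0043. Arrays of a group correlated at 0.998 to 0.999, and no array stood apart. Groups did not overlap for 24.5% of all features, against which the non-overlap of a single gene is read. In all 793 called features the groups did not overlap, so the separation of a called gene's arrays adds no support to its call. Leaving out 1 array brought the count of calls down to between 228, without siControl replicate 2, and 482, without siLAPTM4B replicate 1. Calls named below that were lost when at least 1 array was left out are called array-dependent, and the highest adjusted p reached without 1 array is printed beside them.

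The targeted gene checked the labels. *LAPTM4B* (probe set 8147503) had signals of 11.76, 11.75 and 11.80 in the siControl arrays and of 10.01, 10.04 and 9.99 in the siLAPTM4B arrays. The groups lay far apart, and arrays of a group lay within a few hundredths of each other. The log2 fold change was -1.75 ± 0.04 (standard error, n = 3 arrays a group, adjusted p = 6.4e-07), which left 29.7% of the siControl level. The exact two-sided permutation p was 0.1, the smallest that 3 arrays against 3 allow. Within the family, *LAPTM5* rose by 0.49 ± 0.06 (adjusted p = 0.0053), and *LAPTM4A* had a log2 fold change of 0.02 ± 0.05 (adjusted p = 0.87).

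Most called changes were small. The median absolute log2 fold change of the called features was 0.30 and the smallest was 0.19, against a median of 0.06 over all features. Only 92 called features changed by 0.5 or more, 40 higher and 52 lower, and 5 of these changed by at least 1. These 5 were *LAPTM4B*, *LIFR*, *TNFSF10*, *F2RL2* and *AK5*, and each of them fell. No called gene rose by 1 on the log2 scale, where *MMP1* had the highest value. Of the called features, 768 were protein coding and 15 were long non-coding RNAs, among them *LINC00467*, which rose by 0.61 ± 0.06. None of the 173 microRNA features was called by limma, with 11 at an unadjusted p under 0.05.

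**Figure D1:**
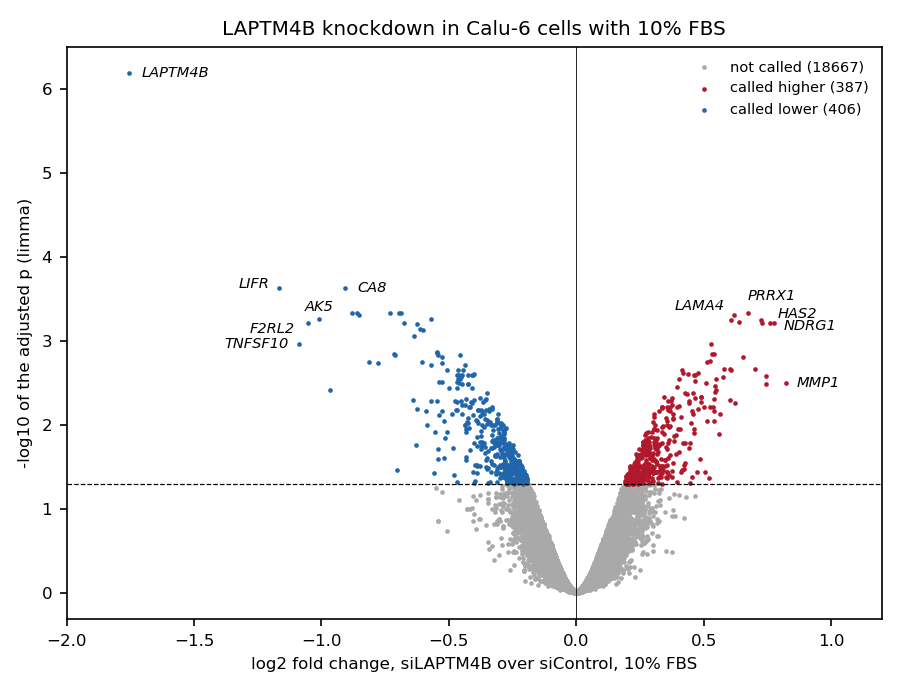
Log2 fold change of siLAPTM4B over siControl with 10% FBS (x axis) against -log10 of the adjusted p from limma (y axis) for 19460 features. Points are features, red for the 387 called higher and blue for the 406 called lower at the dashed threshold of 0.05. *LAPTM4B* at -1.75 stands alone, and the lower side reaches further from 0 than the upper side.

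The genes that fell furthest after *LAPTM4B* code for receptors and ligands at the cell surface. *LIFR*, the receptor for leukemia inhibitory factor, had signals of 8.43, 8.44 and 8.64 in siControl arrays and of 7.33, 7.37 and 7.31 in siLAPTM4B arrays. Knockdown thus left 44.6% of its level, a log2 fold change of -1.16 ± 0.06 (adjusted p = 0.00023). Every siLAPTM4B array lay more than a log2 unit below the lowest siControl array. *IL6ST*, which encodes the gp130 chain that pairs with the LIF receptor, fell by 0.44 ± 0.06 (adjusted p = 0.0057). The receptor gene *IL27RA* rose by 0.30 ± 0.05 (array-dependent, adjusted p up to 0.10). Of 20 measured gp130 cytokine and receptor genes, 2 were called lower and 1 higher, with a median of -0.04. For comparison, 4.09% of all genes were called when each gene was taken once, 2.01% higher and 2.08% lower, with a median of 0.0045. The lists were chosen with earlier results of these data known, so counts in this and later lists are descriptions beside that share. The ligand genes *LIF* (0.05 ± 0.05), *IL6* (0.13 ± 0.05) and *IL11* (-0.12 ± 0.05) did not pass the test. The same held for the sister receptor *OSMR* (-0.04 ± 0.05), for the kinase *JAK1* (-0.04 ± 0.05), for the transcription factor *STAT3* (-0.04 ± 0.04) and for its feedback target *SOCS3* (-0.18 ± 0.07).

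*TNFSF10* encodes TRAIL, a death ligand of the tumor necrosis factor family. Its signals were 7.54, 7.52 and 7.77 in siControl cells and 6.52, 6.35 and 6.69 in siLAPTM4B cells. All 3 knockdown arrays were low, with more spread among them than for *LIFR*. The log2 fold change was -1.09 ± 0.10 (adjusted p = 0.0011), or 47.0% of the siControl level. Among its receptors, *TNFRSF10B* rose by 0.24 ± 0.04 (array-dependent, adjusted p up to 0.10). The death receptor *TNFRSF10A* (0.07 ± 0.06) and the decoys *TNFRSF10D* (0.06 ± 0.05) and *TNFRSF11B* (-0.08 ± 0.05) were not called. The adaptor *FADD* (0.05 ± 0.06), the initiator *CASP8* (0.13 ± 0.04) and its inhibitor *CFLAR* (0.13 ± 0.07) were not called either. In all, 1 of 16 measured genes of the pathway was called higher and 1 lower, and the median was 0.04. That is 12.5% called, beside 4.09% of all genes. In the BCL2 family, *BAD*, a BH3-only sensitizer, fell by 0.48 ± 0.06 (adjusted p = 0.0052). Its relatives *BMF* (0.27 ± 0.05) and *BCL2L1* (0.20 ± 0.05) rose with array-dependent calls, adjusted p up to 0.13 and 0.18, and these were the 3 calls among 20 members.

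*F2RL2* encodes protease-activated receptor 3, a thrombin-cleaved receptor. Its signals were 8.29, 8.57 and 8.63 in siControl arrays and 7.42, 7.49 and 7.42 in siLAPTM4B arrays. The knockdown arrays lay close together and below every control array. The log2 fold change was -1.05 ± 0.08 (adjusted p = 0.0006), or 48.2% of the siControl level. *PROCR*, the endothelial protein C receptor that works with this family, fell by 0.30 ± 0.06 (array-dependent, adjusted p up to 0.10). The thrombin receptors *F2R* (-0.06 ± 0.05) and *F2RL3* (-0.03 ± 0.09), tissue factor *F3* (-0.12 ± 0.04), its inhibitor *TFPI* (-0.03 ± 0.05) and thrombomodulin *THBD* (-0.06 ± 0.07) were not called. Of the 8 measured genes of the list, 2 were called lower and none higher, and 1 had a positive log2 fold change.

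Enzymes and transporters made up much of the rest of the lower end. *AK5*, a brain-type adenylate kinase, had signals of 8.71, 8.45 and 8.65 in siControl arrays against 7.58, 7.67 and 7.53 in siLAPTM4B arrays. *CA8*, a carbonic anhydrase relative without catalytic activity, had 8.53, 8.55 and 8.63 against 7.64, 7.72 and 7.61. In both genes the siControl arrays were high and the siLAPTM4B arrays low without overlap, with log2 fold changes of -1.01 ± 0.07 (adjusted p = 0.00055) and -0.91 ± 0.05 (adjusted p = 0.00023). The urea transporter *SLC14A1* fell by 0.85 ± 0.06, the cystine transporter *SLC7A11* fell by 0.86 ± 0.06 and the efflux pump *ABCG2* fell by 0.81 ± 0.08. Further decreases were 0.78 ± 0.08 for *DIO2*, which activates thyroid hormone, and 0.71 ± 0.07 for *NNMT*, which methylates nicotinamide. They were 0.88 ± 0.06 for the secreted *PAMR1*, 0.73 ± 0.05 for the microtubule end-binding *MAPRE3* and 0.71 ± 0.07 for the membrane protein *PLXDC2*. The calls of these genes held without any 1 array.

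The upper end of the response held matrix, signaling and regulatory genes. *MMP1*, interstitial collagenase, had signals of 7.68, 7.57 and 7.72 in siControl arrays and of 8.42, 8.70 and 8.32 in siLAPTM4B arrays. Knockdown arrays were all higher, with 1 of them clearly above the others, and the mean rose 1.77-fold (log2 fold change 0.82 ± 0.09, adjusted p = 0.0032). *NDRG1*, a stress- and differentiation-linked gene, had 8.73, 8.66 and 8.85 against 9.59, 9.49 and 9.48, a rise of 0.77 ± 0.06 (adjusted p = 0.0006). *HAS2*, a hyaluronan synthase of the plasma membrane, had 9.00, 9.01 and 9.17 against 9.77, 9.83 and 9.77, a rise of 0.73 ± 0.06 (adjusted p = 0.0006). In both genes the 3 knockdown arrays lay together above the controls. The ubiquitin ligase *RNF182* rose by 0.76 ± 0.06, the SHC adaptor *SHC4* by 0.75 ± 0.09, *ANKRD44* by 0.72 ± 0.05 and *FRMD5* by 0.65 ± 0.06. The features of *MORC4* disagreed, since 2 of them rose by 0.70 ± 0.07 and 0.49 ± 0.06 while the brightest, at 0.08 ± 0.07, was not called (adjusted p = 0.63). The mesenchymal homeobox gene *PRRX1* rose by 0.67 ± 0.04. The sheddase *ADAM19* rose by 0.64 ± 0.05, the vitamin B12 carrier *TCN1* by 0.62 ± 0.08 and *IL17RD*, an inhibitor of FGF signaling, by 0.61 ± 0.05. *KLRC1* had 0.75 ± 0.08, but its gene has near-identical neighbors whose RNA could reach the same probes, so its identity is uncertain. The calls of these genes and features held without any 1 array.

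**Figure D2:**
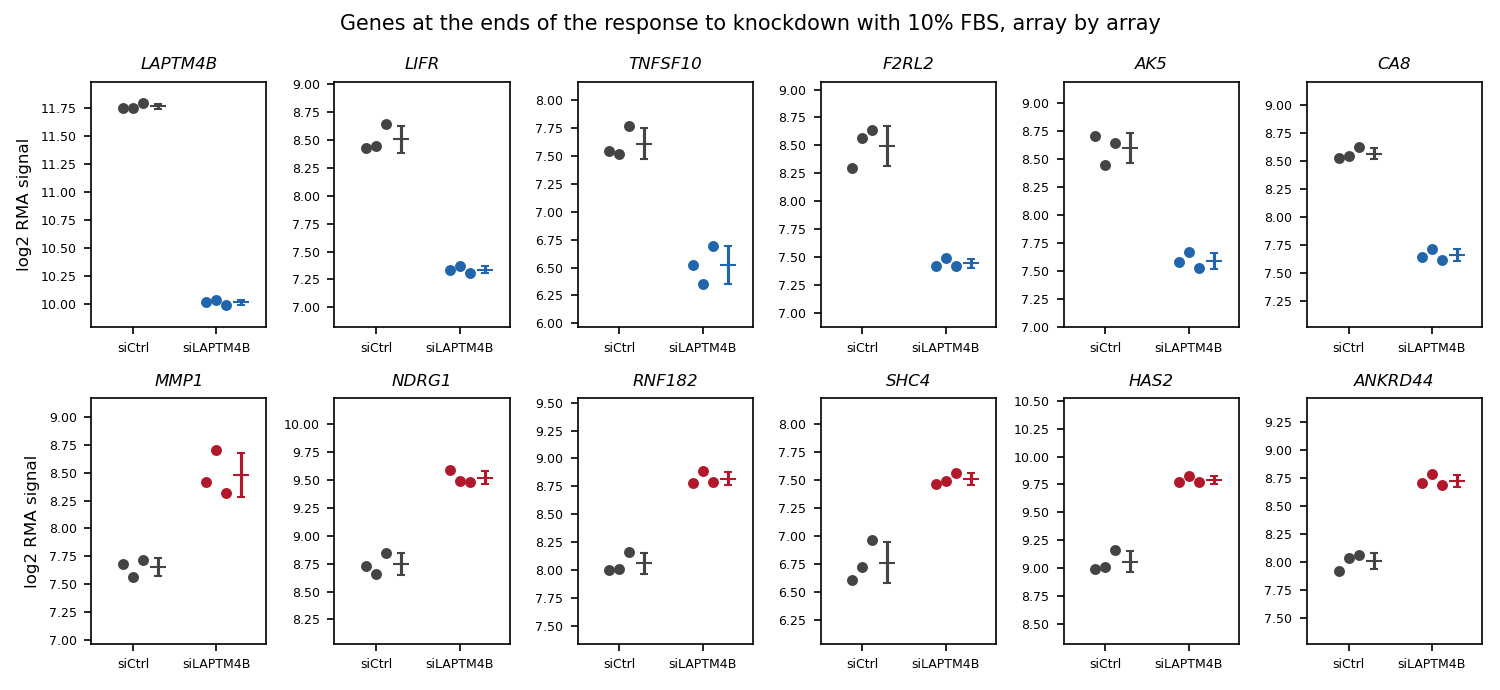
Log2 RMA signals of 12 genes from the ends of the response in the 6 arrays with 10% FBS, all panels spanning the same number of log2 units. Each point is an array, with group means and SDs (n = 3) drawn to the right of the points. In each panel the siLAPTM4B points lie apart from the siControl points, as they do for all 793 called features, among which these genes were picked.

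Genes of the extracellular matrix and of proteolysis moved in both directions. *TIMP3*, a matrix-bound inhibitor of metalloproteinases, had signals of 12.36, 12.27 and 12.30 in siControl arrays and of 11.88, 11.78 and 11.75 in siLAPTM4B arrays at its brighter feature, a decrease of 0.51 ± 0.05 (adjusted p = 0.0022). Its other feature fell by 0.96 ± 0.11. The gelatinase *MMP2* fell by 0.35 ± 0.04 (adjusted p = 0.0049). With *MMP1* these were the 3 calls among 27 measured MMP and TIMP genes (11.1%, beside 4.09% of all genes). *TIMP1* (0.04 ± 0.05), *TIMP2* (-0.13 ± 0.06), *TIMP4* (-0.17 ± 0.06), *MMP14* (0.09 ± 0.06), *MMP3* (-0.18 ± 0.13) and *RECK* (0.09 ± 0.07) were not called. Urokinase, *PLAU*, had 10.26, 10.25 and 10.25 against 9.80, 9.78 and 9.82, a decrease of 0.46 ± 0.04 (adjusted p = 0.0015). Its inhibitor *SERPINE2*, protease nexin 1, rose by 0.42 ± 0.04 (adjusted p = 0.0024), while the receptor *PLAUR* (-0.05 ± 0.05) and the activator *PLAT* (0.13 ± 0.06) were not called. *PLAU* and *SERPINE2* were the called ones among the 12 measured genes of that system (16.7%).

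Of 35 integrin and laminin chains, 6 were called higher and 1 lower (4 to 5 called with 1 array left out). The laminin chains *LAMA4* (10.14, 10.10 and 10.15 against 10.77, 10.77 and 10.72) and *LAMC1* rose by 0.62 ± 0.04 (adjusted p = 0.00048) and 0.30 ± 0.05 (adjusted p = 0.011). For *LAMA4* the groups were separated by many times the spread within a group. The collagen-binding integrins went opposite ways, with *ITGA10* higher by 0.46 ± 0.06 (adjusted p = 0.0041) and *ITGA11* lower at -0.55 ± 0.05 (adjusted p = 0.0014). Their common partner *ITGB1* had 0.15 ± 0.05 (adjusted p = 0.14). Of 25 matricellular genes, 4 were called lower and 2 higher, which is 24.0% called (2 to 4 called with 1 array left out). Thrombospondin 1, *THBS1*, fell by 0.57 ± 0.04 (adjusted p = 0.00055), osteopontin, *SPP1*, fell by 0.43 ± 0.07 (array-dependent, adjusted p up to 0.063), and spondin 1, *SPON1*, rose by 0.58 ± 0.06 (adjusted p = 0.0022). None of 52 collagens and collagen-modifying enzymes was called higher and 3 were called lower. That is 5.77% called, near the 4.09% of all genes (0 called without siControl replicate 2 and 1 without any other array). The 3 included the collagen chaperone *SERPINH1* with -0.31 ± 0.04 (array-dependent, adjusted p up to 0.052). Hyaluronan genes other than *HAS2* moved less. *HMMR* rose by 0.43 ± 0.08 (array-dependent, adjusted p up to 0.089), and it is also 1 of the 7 called genes of the G2 and M phases below. *HAS3* (0.13 ± 0.05), *CD44* (0.01 ± 0.04) and *CEMIP* (-0.32 ± 0.09) were not called.

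Genes of prostaglandin synthesis were among those called lower. *PTGS2*, cyclooxygenase 2, had signals of 11.48, 11.58 and 11.57 in siControl arrays and of 10.84, 10.88 and 10.83 in siLAPTM4B arrays. The decrease was 0.70 ± 0.05 (adjusted p = 0.00046), and 61.8% of the siControl level remained. *PTGES*, the inducible prostaglandin E synthase downstream of it, had 9.97, 10.00 and 9.95 against 9.58, 9.45 and 9.49, a decrease of 0.47 ± 0.05 (adjusted p = 0.0025). The siLAPTM4B arrays lay below the siControl arrays in both genes. The monoglyceride lipase *MGLL*, which can release arachidonic acid, fell by 0.42 ± 0.06 (adjusted p = 0.006), and the prostaglandin E2 receptor *PTGER4* fell by 0.32 ± 0.05 (array-dependent, adjusted p up to 0.065). The thromboxane receptor *TBXA2R* rose by 0.31 ± 0.05 (array-dependent, adjusted p up to 0.070). In all, 5 of 25 measured prostanoid genes were called lower and 1 higher, with a median of -0.02, and 3 to 5 were called with 1 array left out. That is 24.0% called, beside 4.09% of all genes, in a list chosen with earlier results of these data known. The constitutive enzymes *PTGS1* (-0.05 ± 0.06), *PTGES2* (-0.06 ± 0.04) and *PTGES3* (0.06 ± 0.07) were not called, nor were the phospholipase *PLA2G4A* (-0.27 ± 0.06, adjusted p = 0.052) and the degrading enzyme *HPGD* (-0.23 ± 0.08).

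*PTGS2* also belongs to the inflammatory genes that NF-kappaB induces, and there it moved against the others that were called. Of 40 such genes, 4 were called higher and *PTGS2* alone lower, which is 12.5% beside 4.09% of all genes. With 1 array left out, 2 to 4 were called. *CXCL8*, interleukin 8, had signals of 7.81, 7.78 and 7.81 in siControl arrays and of 8.31, 8.38 and 8.24 in siLAPTM4B arrays, a rise of 0.51 ± 0.05 (adjusted p = 0.0018). All siLAPTM4B arrays were higher than the siControl arrays. The calls of *CCL20* (0.42 ± 0.08), *CXCL1* (0.30 ± 0.06) and the inhibitor *NFKBIA* (0.24 ± 0.05) were array-dependent, with adjusted p up to 0.10, 0.12 and 0.15. *CXCL1* has close paralogs, and cross-hybridization with them cannot be told apart from its own signal.

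The stretches of 250 bases before the transcription starts of *PTGS2* (GRCh38.p14, chr1:186680424-186680673, minus strand) and *CXCL8* (GRCh38.p14, chr4:73740319-73740568, plus strand) are shown because they are the largest movers of that list in opposite directions. They are RefSeq sequences, written 5′ to 3′ toward the start. Capitals mark matches to the AP-1 motif TGACTCA, the core of a cyclic AMP response element, TGACG, and the TATA box TATAAA, each searched on both strands, and the marked matches do not overlap.
PTGS2: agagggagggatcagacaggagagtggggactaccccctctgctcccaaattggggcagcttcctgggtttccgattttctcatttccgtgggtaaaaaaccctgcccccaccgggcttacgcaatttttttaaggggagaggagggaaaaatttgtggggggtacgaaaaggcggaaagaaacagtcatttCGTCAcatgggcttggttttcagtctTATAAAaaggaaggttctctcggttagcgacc
CXCL8: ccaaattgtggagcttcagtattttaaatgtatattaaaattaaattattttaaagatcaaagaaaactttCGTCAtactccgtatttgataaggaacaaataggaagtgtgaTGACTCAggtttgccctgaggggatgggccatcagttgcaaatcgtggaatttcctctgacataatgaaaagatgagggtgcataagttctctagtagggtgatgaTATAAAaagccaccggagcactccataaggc
Both stretches hold a TATA box, which begins 32 bases before the start in *PTGS2* and 31 bases before it in *CXCL8*. Both hold the response element core, at 58 and 179 bases before the start. The AP-1 motif was found at 137 bases before the start of *CXCL8* and was not among the letters of the *PTGS2* window. Of 35116 RefSeq windows of this length, 4.20% held the AP-1 motif, 21.2% the response element core and 10.7% the TATA box. A match is a description of letters, and binding was not measured.

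**Figure D3:**
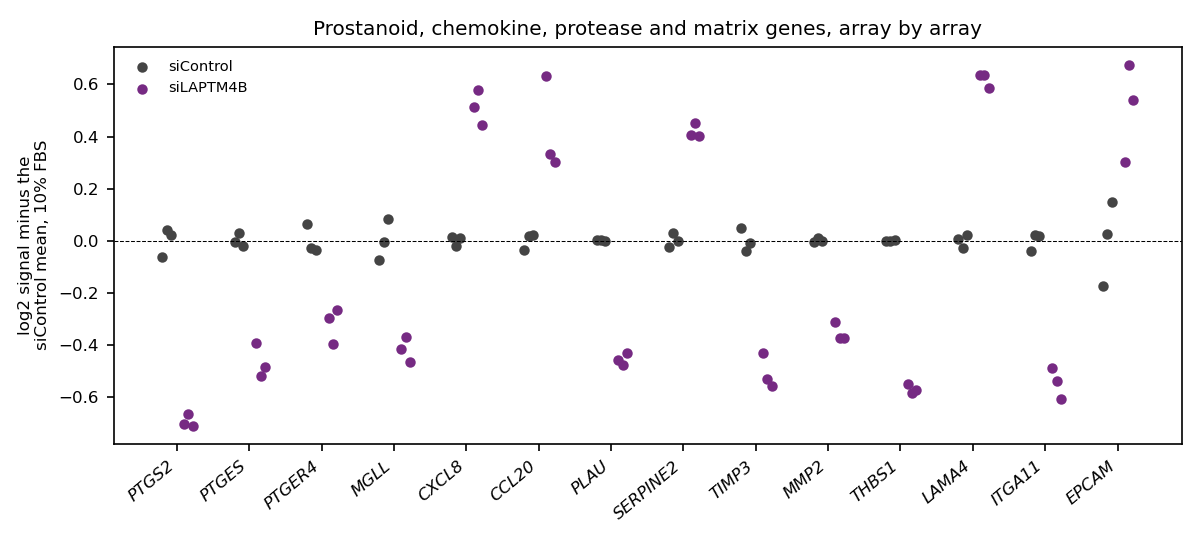
Log2 signal minus the siControl mean (y axis) of prostanoid, chemokine, protease and matrix genes (x axis) in the 6 arrays with 10% FBS. Points are arrays, grey for siControl and purple for siLAPTM4B. *PTGS2*, *PTGES*, *PTGER4* and *MGLL* lie below 0 in each knockdown array, whereas *CXCL8*, *CCL20*, *SERPINE2* and *LAMA4* lie above it.

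Genes of cell division had small positive values in most cases. Of 74 measured genes of the G2 and M phases, 73 had a positive log2 fold change, 7 were called higher and none lower by limma, and the median was 0.10. The count of called genes in this list ranged from 1 to 8 when 1 array was left out. The centrosomal kinase *NEK2* had signals of 10.43, 10.38 and 10.42 in siControl arrays and of 10.77, 10.84 and 10.74 in siLAPTM4B arrays, a rise of 0.37 ± 0.05 (adjusted p = 0.0052). The kinetochore gene *NDC80* (0.35 ± 0.06) and the mitotic kinesin *KIF15* (0.34 ± 0.05) rose with array-dependent calls, adjusted p up to 0.086 and 0.062. Of 58 S phase and DNA replication genes, 49 had positive values with a median of 0.08, and 2 were called higher, *GINS1* (0.26 ± 0.05) and *BLM* (0.23 ± 0.05), both array-dependent with adjusted p up to 0.14. Across all genes, 52.0% had a positive log2 fold change and 4.09% were called. Among 37 cyclins, cyclin-dependent kinases and their regulators, 3 were called lower and 1 higher (1 to 2 called with 1 array left out). The inhibitor *CDKN1A*, p21, fell by 0.45 ± 0.05 (adjusted p = 0.0032), and cyclin E1, *CCNE1*, fell by 0.26 ± 0.05 (array-dependent, adjusted p up to 0.089). Of 33 p53 targets, *CDKN1A* was called lower and *TNFRSF10B* higher.

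Hypoxia-linked and amino acid stress genes held more lower than higher calls, where 2.08% of all genes were called lower and 2.01% higher. Of 43 hypoxia targets and glycolysis genes, 8 were called lower and *NDRG1* higher, with a median of -0.05, but 2 to 5 were called with 1 array left out, the fewest without siLAPTM4B replicate 3. The prolyl hydroxylase *EGLN3* had 8.76, 8.77 and 8.95 in siControl arrays against 8.28, 8.39 and 8.40 in siLAPTM4B arrays, a decrease of 0.47 ± 0.06 (adjusted p = 0.0066). *ANGPTL4* fell by 0.37 ± 0.06, *DDIT4* by 0.36 ± 0.06 and *VEGFA* by 0.34 ± 0.06, each with an array-dependent call (adjusted p up to 0.055, 0.082 and 0.089). The glycolytic genes *SLC2A1* (0.02 ± 0.04), *PGK1* (0.02 ± 0.05) and *LDHA* (0.04 ± 0.05) and the factor *HIF1A* (-0.05 ± 0.05) were not called. Of 46 ATF4 targets and tRNA synthetases, 5 were called lower and none higher by limma, where at an unadjusted p under 0.05 there were 13 lower and 0 higher. With 1 array left out, 1 to 4 of these genes were called. They included *SLC7A11*, *DDIT4*, *DDIT3* (-0.26 ± 0.05, array-dependent, adjusted p up to 0.095) and *SLC7A5* (-0.25 ± 0.04, array-dependent, adjusted p up to 0.11). *ATF4* itself (-0.02 ± 0.05), *ASNS* (-0.00 ± 0.05), *TRIB3* (-0.10 ± 0.05) and *SLC3A2* (-0.16 ± 0.05) were not called. NRF2 targets, the subject of the study, had the lowest median of the 43 lists at -0.10, with 9 of 33 called lower and 1 higher, and 3 to 8 called with 1 array left out, the fewest without siControl replicate 2. The genes called lower include *SLC7A11* and *ABCG2*, as well as *AKR1C3* (-0.64 ± 0.08, adjusted p = 0.005), a member of a family of near-identical genes. Also called lower were *AKR1C2*, *ME1* and *ABCC2*, all array-dependent (adjusted p up to 0.11, 0.088 and 0.058). *NQO1*, *TXN* and *EPHX1* were called lower too, and their dependence on single arrays was not followed. The gene called higher was *IDH1* (array-dependent, adjusted p up to 0.15). The remaining 23 NRF2 targets were not called, among them *HMOX1*, *GCLC*, *GCLM*, *TXNRD1* and *SRXN1*. With 0% FBS the same list had a median of -0.17, with 10 called lower and 0 higher.

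Of 388 solute carrier (*SLC*) features, 17 were called lower and 3 higher, which is 5.15% called, beside 4.08% of all features. Besides those above, they included *SLC7A8* (-0.60 ± 0.05), *SLC4A4* (-0.55 ± 0.09, array-dependent, adjusted p up to 0.065), *SLC35B2* (-0.53 ± 0.05) and *SLC44A1* (-0.44 ± 0.05), which carry amino acids, bicarbonate, sulfate donors and choline. Of 42 ABC transporters, 5 were called lower and none higher by limma, with 10 below and 4 above the controls at an unadjusted p under 0.05 (2 to 4 called with 1 array left out). Of 510 zinc finger (*ZNF*) features, 13 were called higher and 2 lower (2.94% called), and 67.1% had positive values with a median of 0.04. Features whose symbols begin with *RPS* or *RPL* and a digit or hyphen were counted too, a rule that can take in genes other than those of ribosomal proteins. Of these, 13 of 54 *RPS* and 11 of 76 *RPL* features had positive values, with medians of -0.06 and -0.08. Among them 3 *RPS* and 2 *RPL* features were called lower. Genes of respiratory chain complex I had a median of -0.06, with 7 of 34 positive and 0 called by limma, and 6 lower at an unadjusted p under 0.05. Genes of cholesterol synthesis and uptake had a median of -0.08, with 4 of 19 positive, 0 called by limma and 5 lower at an unadjusted p under 0.05.

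**Figure D4:**
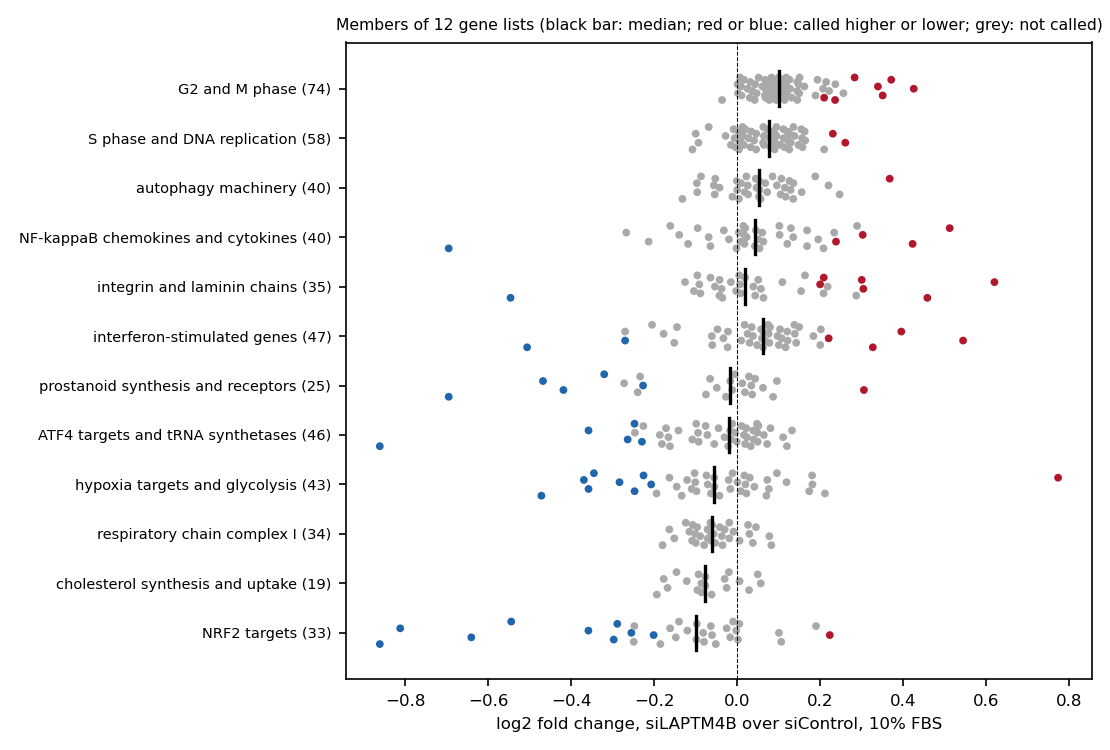
Log2 fold changes with 10% FBS (x axis) of the measured members of 12 gene lists (y axis, number of measured genes in brackets). Points are genes, red or blue where called higher or lower and grey where not called, and the black bar is the median of a list. G2 and M phase genes lie to the right of 0 with a median of 0.10, and NRF2 targets have the lowest median, -0.10.

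Calls among signaling genes went in both directions, as did those over all genes, with 2.01% called higher and 2.08% lower. *IGFBP5*, an IGF-binding protein, had 12.58, 12.57 and 12.58 in siControl arrays against 12.04, 11.88 and 11.90 in siLAPTM4B arrays, a decrease of 0.64 ± 0.05 (adjusted p = 0.00087). It lay apart from the controls in every array. Its relative *IGFBP4* rose by 0.28 ± 0.05 (array-dependent, adjusted p up to 0.082), and these were the 2 calls among 19 genes of the IGF and insulin axis. *IGF1R* (-0.09 ± 0.05) and *IGFBP3* (-0.13 ± 0.07) were not called. Of 30 TGF-beta response genes, 3 were called lower and 2 higher. The receptor *TGFBR2* fell by 0.33 ± 0.04 (adjusted p = 0.0065), while activin A, *INHBA*, rose by 0.34 ± 0.04 (adjusted p = 0.0046) and *PMEPA1*, a negative regulator of the pathway, by 0.40 ± 0.04 (adjusted p = 0.0029). Secreted antagonists of BMP and activin rose as well, *FST* by 0.47 ± 0.05 (adjusted p = 0.0029) and *NOG* by 0.40 ± 0.07 (array-dependent, adjusted p up to 0.088). Among 58 Wnt genes (1 to 3 called with 1 array left out), 4 were called lower, led by *WNT5A* at -0.38 ± 0.06 (adjusted p = 0.012), and 2 higher. Of 51 guidance genes, 5 were called higher and 3 lower (2 to 3 called with 1 array left out), led by *SEMA3E* (0.61 ± 0.06, adjusted p = 0.0021) and *EPHB1* (0.50 ± 0.07, adjusted p = 0.006). None of the 16 EGF receptor and ligand genes was called by limma (at an unadjusted p under 0.05, 2 each way). A list of 27 DUSP, Sprouty and ERK output genes had 1 to 2 called with 1 array left out. In it the phosphatase *DUSP16*, whose action on ERK was not examined, fell by 0.31 ± 0.05 (adjusted p = 0.0091). In the same list 3 genes were called higher, among them *SPRY2* at 0.27 ± 0.05 (array-dependent, adjusted p up to 0.10).

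*LAPTM4B* acts in lysosomes and autophagy. Of 61 lysosomal genes, 3 were called lower and *LAPTM5* higher, which is 6.56% beside 4.09% of all genes, and 1 to 2 were called with 1 array left out. The sphingomyelinase *SMPD1* fell by 0.24 ± 0.05, the sialidase *NEU1* by 0.26 ± 0.05 and the sulfatase *IDS* by 0.24 ± 0.05, with array-dependent calls (adjusted p up to 0.11, 0.14 and 0.12). Of 40 autophagy genes, *ATG14*, a subunit of the lipid kinase complex that starts autophagosomes, was the single call (2.5%), higher at 0.37 ± 0.06 (array-dependent, adjusted p up to 0.057), and 30 had positive values with a median of 0.05. Interferon-stimulated genes had 4 of 47 called higher and 2 lower (2 to 4 called with 1 array left out), with *PARP14* at 0.55 ± 0.06 (adjusted p = 0.0034) and *BST2* at -0.51 ± 0.08 (array-dependent, adjusted p up to 0.067). In lipid metabolism, *ACSL5*, an acyl-CoA synthetase, rose by 0.43 ± 0.05 (adjusted p = 0.0041), and *ME1*, which supplies NADPH, fell by 0.36 ± 0.06 (array-dependent, adjusted p up to 0.088).

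Markers of cell types were followed because a shift in the state of the cells would move them. All samples were cultures of the single line Calu-6. The epithelial adhesion gene *EPCAM* rose at both of its features, by 0.54 ± 0.07 (adjusted p = 0.0049) and 0.51 ± 0.11 (array-dependent, adjusted p up to 0.14), and was the single call among 8 lung epithelial markers. The keratins *KRT8* (0.15 ± 0.04, adjusted p = 0.093), *KRT18* (0.07 ± 0.05) and *KRT7* (-0.11 ± 0.05) were not called. *CDH1*, *NKX2-1* and *SFTPB*, which mark lung epithelium, had signals of 6.14 to 6.28, 6.89 to 7.11 and 6.94 to 7.24 over the 6 arrays and were not called. Of 8 fibroblast markers, *LUM* fell by 0.52 ± 0.07 (adjusted p = 0.0067) and *PDGFRB* by 0.35 ± 0.07 (array-dependent, adjusted p up to 0.11), while *COL1A1* (0.07 ± 0.06) and *THY1* (-0.04 ± 0.07) were not called. The mean over the epithelial markers was 9.09 to 9.12 in siControl and 9.16 to 9.20 in siLAPTM4B arrays, and over the fibroblast markers 7.75 to 7.85 and 7.67 to 7.73. None of 7 leukocyte or 8 endothelial markers was called by limma, with 1 of each higher at an unadjusted p under 0.05. The transcription factor *SNAI2*, an inducer of the mesenchymal state, fell by 0.43 ± 0.05 (adjusted p = 0.0032). Of 21 measured epithelial and mesenchymal regulators, *EPCAM* was the single gene called higher and *SNAI2* the single gene called lower. That is 9.52% called, beside 4.09% of all genes, with 10 positive and 11 negative values and a median of -0.02. The mesenchymal homeobox gene *PRRX1*, given above and outside that list, rose. The part of these shifts in the other results was not tested.

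Most of the response had the same direction without serum but was smaller there. Of the 793 features called with 10% FBS, 709 (89.4%) had the same sign with 0% FBS, against 57.6% of all features. The comparisons share no arrays. Features called higher had a median of 0.29 with 10% FBS and of 0.12 with 0% FBS, and those called lower had -0.30 and -0.18. Because the features were chosen on the values with 10% FBS, a smaller value in the other medium is a description. Both media shared 196 calls, which were 24.7% of the calls with 10% FBS and 43.2% of the 454 calls with 0% FBS (2.33% of features). Of these, 62 were higher and 133 lower in both media, and *PLAU* went opposite ways.

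A test of the difference itself, over all 12 arrays, called 51 features (0.262%), 30 of which were also called with 10% FBS. In 12 of these the effect was more negative with 10% FBS, and in 18 it was more positive. *LIFR* had -1.16 with serum and -0.24 ± 0.07 without it, a difference of -0.93 ± 0.10 (adjusted p = 0.0016). *TNFSF10* had -1.09 and -0.16 ± 0.06, a difference of -0.93 ± 0.12 (adjusted p = 0.0083). *PLAU* fell with serum and rose by 0.43 ± 0.05 without it, a difference of -0.89 ± 0.06 (adjusted p = 6.1e-05). *HAS2* rose with serum and had -0.14 ± 0.05 without it, a difference of 0.87 ± 0.07 (adjusted p = 0.00026). *PRRX1* had 0.15 ± 0.05 without serum, a difference of 0.52 ± 0.06 (adjusted p = 0.0041). These 5 differences held without any 1 of the 12 arrays. *PTGS2* went further down without serum, at -1.21 ± 0.09, but the difference of 0.52 did not pass the test (adjusted p = 0.074). *LAPTM4B* itself had -1.42 ± 0.05 without serum, and its difference of -0.33 ± 0.06 (adjusted p = 0.035) was lost when any 1 of the 12 arrays was left out, with adjusted p up to 0.10 over all alternatives. The estimated knockdown of *LAPTM4B* was thus larger with serum, and its part in the differences of the other genes was not tested.

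**Figure D5:**
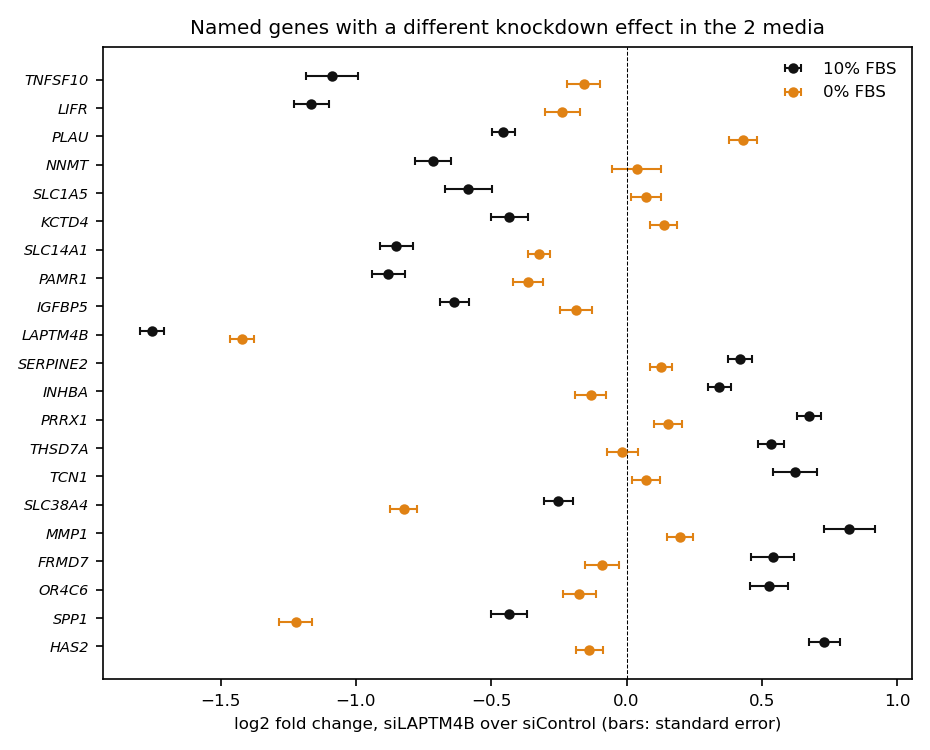
Log2 fold changes of siLAPTM4B over siControl (x axis) of the named genes whose knockdown effect differed between the media (y axis). Points are the values with 10% FBS (black) and 0% FBS (orange), and bars are standard errors. *PLAU* lies on opposite sides of 0 in the media, and *LIFR* and *TNFSF10* lie near -1 with 10% FBS and closer to 0 with 0% FBS.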

How the data were processed

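Total RNA of the cells was hybridised to Affymetrix Human Gene 1.0 ST arrays. The deposited log2 values were made by the authors with RMA, which corrects background, normalizes quantiles between arrays and summarizes probes, in BRB-ArrayTools v 4.3.0. Library file and annotation version are not given in the sources used here. Of 33252 features, 19460 carry 1 symbol in the platform annotation, 1754 carry several and 12038 none. 769 genes have several features, of which lists used the brightest one on average. siLAPTM4B was compared with siControl by limma 3.58.1 in R 4.3.3 over the 6 arrays, with Benjamini-Hochberg adjustment over 19460 features. The difference between the media was an interaction over 12 arrays. P-values measure the spread between 3 replicates a group, which the labels call biological. The members and lists were chosen with earlier results of these data known. The rule for named genes was *LAPTM4B*, the 15 largest called changes in each direction, up to 4 called genes of a list in each direction, their direct partners, the 8 largest media differences in each direction and cell type markers. *SLC7A8*, *SLC4A4*, *SLC35B2* and *SLC44A1* were named after their values were seen. *NQO1*, *TXN* and *EPHX1* were named as the remaining genes called lower in the NRF2 list. List genes without a feature of their own symbol are not analysed here. Promoters came from RefSeq (GRCh38.p14) and were held for 14237 (77.3%) of the genes tested, under the 80% set as a minimum, so a comparison of motif shares between called genes was void. The scripts were tested on simulated data. The precision is limited by the number of arrays. Alternatives changed the features tested, the arrays in the fit, the variance prior, the centring and normalization of arrays and the test, used a replicate block, or left out each array in turn.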

Additional observations from a re-analysis of the deposited data

Results flagged for a closer look

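Of the named genes that were called with 10% FBS, 21 had a knockdown effect that differed between the media by the interaction test over 12 arrays. Values are the log2 fold change with 10% FBS minus that with 0% FBS. Negative differences were -0.93 for *TNFSF10*, -0.93 for *LIFR*, -0.89 for *PLAU*, -0.75 for *NNMT*, -0.66 for the glutamine transporter *SLC1A5* and -0.57 for *KCTD4*. Further negative differences were -0.53 for *SLC14A1*, -0.52 for *PAMR1*, -0.45 for *IGFBP5* and -0.33 for *LAPTM4B*. Positive differences were 0.87 for *HAS2*, 0.79 for *SPP1*, 0.70 for the olfactory receptor *OR4C6*, 0.63 for *FRMD7* and 0.63 for *MMP1*. Further positive differences were 0.57 for the amino acid transporter *SLC38A4*, 0.55 for *TCN1*, 0.55 for *THSD7A*, 0.52 for *PRRX1*, 0.48 for *INHBA* and 0.29 for *SERPINE2*.

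*SPP1* and *SLC38A4* fell in both media and further without serum, with -1.22 ± 0.06 and -0.82 ± 0.05 there. The call of *SLC38A4* with 10% FBS (-0.25 ± 0.05) was lost without any 1 array (adjusted p up to 0.13) and with arrays centred on their median, and that of *KCTD4* was lost without siLAPTM4B replicate 3 (adjusted p = 0.067). *NNMT* had 0.04 ± 0.09, *INHBA* -0.13 ± 0.06 and *THSD7A* -0.02 ± 0.06 without serum. *SLC1A5* has a brighter feature that was not called with 10% FBS (-0.17 ± 0.05, adjusted p = 0.080), so its features disagree. The differences of *TNFSF10*, *LIFR*, *PLAU*, *SLC14A1*, *HAS2*, *SPP1*, *SLC38A4*, *THSD7A*, *PRRX1* and *INHBA* passed the test under every one of 17 alternatives, and each of the others was lost under at least 1.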

How the results depend on the processing

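The count of features called with 10% FBS (793; 387 features called higher with 10% FBS and 406 features called lower with 10% FBS) became 279 (109 and 170) with all features tested and 1370 (700 and 670) in a fit of all 12 arrays. It became 1686 (854 and 832) when limma used a robust prior variance with a trend on intensity. An ordinary t-test gave 177 (71 and 106) after adjustment and 1300 (639 and 661) at an unadjusted p under 0.01, where limma gave 1574 (787 and 787). The paper's methods name that unadjusted threshold and no test for the arrays. Leaving out 1 array gave 228 to 482 calls, 92 to 241 higher and 131 to 257 lower, the lowest total without siControl replicate 2. Counts moved by less than 1.5 times with dim features left out, 1 feature per gene, repeated quantile normalization and arrays centred on their median. The media test called 51 features, 17 with all features, 81 without dim features, 163 with the trend and 19 to 51 with 1 array left out. Replicate numbers were not used to pair the arrays. Deviations of siControl and siLAPTM4B arrays of the same number correlated at 0.37, 0.15 and -0.08, which does not settle whether the numbers pair them. With the replicate block, 833 features were called with 10% FBS and 84 in the media test. *LAPTM4B* kept its call throughout, at -1.77 to -1.74 without 1 array. Of 148 called features followed by name, 76 lost the call without at least 1 array, 71 with all features tested and 108 in the adjusted t-test, and none changed direction. Of 430 recomputed list medians, 399 moved by less than the spread between replicates. Another background correction or probe summary was not run. The cause of these differences was not tested.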

Other observations

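Calls with 10% FBS made up 10.0% of FGF, 9.68% of sphingolipid, 7.69% of FOXO target, 7.41% of contractile and 3.57% of unfolded protein response genes, beside 4.09% of all genes. With 1 array left out, 0 to 2 FGF, 0 sphingolipid, 0 to 2 FOXO target and 1 to 2 contractile genes were called. Of 30 FGF ligands and receptors, *FGF12* was called higher at 0.38 ± 0.05 (adjusted p = 0.0086, but 0.050 without 1 array), *FGFR1* higher at 0.25 ± 0.05 and *FGF1* lower at -0.26 ± 0.06, and the last 2 calls were lost without any 1 array. Among 27 contractile and SRF target genes, *FHL2*, a LIM-domain cofactor, fell by 0.37 ± 0.05 (adjusted p = 0.0067). *ACTG2*, smooth muscle gamma actin, fell by 0.38 ± 0.06, a call lost without 2 of the arrays. Of 26 FOXO targets, the ubiquitin ligase *FBXO32* (-0.40 ± 0.07) and the repressor *BCL6* (-0.28 ± 0.04) were called lower, each lost without 3 of the arrays. *SEC24D*, a coat protein of vesicles leaving the endoplasmic reticulum, fell by 0.33 ± 0.05 and was the single call among 28 genes of the unfolded protein response. Of 31 sphingolipid genes, *SGPL1*, which cleaves sphingosine phosphate, and *B4GALT6*, which makes lactosylceramide, were called higher at 0.28 ± 0.06 and 0.32 ± 0.07, both lost without any 1 array. *SMPD1*, given above with the lysosomal genes, was the remaining call of that list and was lower.

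The 13792 features without exactly 1 symbol held 50 calls when p was adjusted over all features, 13 higher and 37 lower. Of 178 small nucleolar RNA features 2 were called, and 24.3% of the 115 *SNORD* features had positive values, with a median of -0.09.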
